A study of Nomascus leucogenys with 9 samples.

Results

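The genes described here are 10 signalling genes that act just below tumour necrosis factor (TNF) receptors: the adaptors TRAF1, TRAF2, TRAF3, TRAF4, TRAF5 and TRAF6, the death-domain proteins TRADD and RIPK1, and the inhibitors CFLAR and TNIP1. They were chosen by name, and each was looked up by its human-format Ensembl identifier in an RNA-seq table of 15356 genes. All 10 were in the table, and all 10 were among the 12590 genes kept by the filter on low levels, a mean of at least 1 part per 1000000 (ppm) of the summed linear values. The samples were 9 lymphoblastoid cell lines, which are cultured B lymphocytes made to grow without limit by Epstein-Barr virus (EBV), each from a different northern white-cheeked gibbon (Nomascus leucogenys). They form 1 group, with no treatment, time course or control, and are numbered here by name. Asia is line 1, Bobby line 2, China line 3, Khao line 4, Melouprey line 5, Nancy line 6, Phyllis line 7, Ricky line 8 and Vok line 9. The study around them concerned LAVA, a retrotransposon of gibbons. Animal, culture and transformation event coincide in every line and cannot be told apart.

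TNF receptors, CD40 and the EBV membrane protein LMP1 have no enzyme activity of their own and signal by binding adaptors. LMP1 imitates a constantly active CD40: one stretch of its tail binds TRAF1, TRAF2, TRAF3 and TRAF5, and another recruits TRADD and RIPK1, so that NF-kB is kept active and the infected B cell survives. NF-kB in turn raises transcription of several of these genes in human cells, among them TRAF1, CFLAR and TNIP1. Whether LMP1 was present in these lines, and the state of NF-kB protein, were not measured.

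All 10 genes were expressed in every line, and their median spread between lines was close to that of all kept genes. The median SD of the 10 genes over the lines was 0.20 log2 units, beside 0.22 over all kept genes, and their median range from lowest to highest line was 0.62 log2 units (1.53-fold), beside 0.68 (1.60-fold). Only TRAF4 spanned at least 2-fold, which is 1 of 10 genes, beside 26.4% of all kept genes. None of the 10 had a single line standing apart by Dixon's gap criterion, which 10.1% of kept genes had. The values are the deposited ones, on a log scale taken as base 2. The authors had already brought the libraries to a common scale, so the depth of each is unknown and no counting error can be given. Gene lengths were not available, so levels are compared between lines for 1 gene and not between genes. In bulk RNA of this kind, fewer cells of a type and less RNA per cell cannot be told apart.

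**Figure D1:**
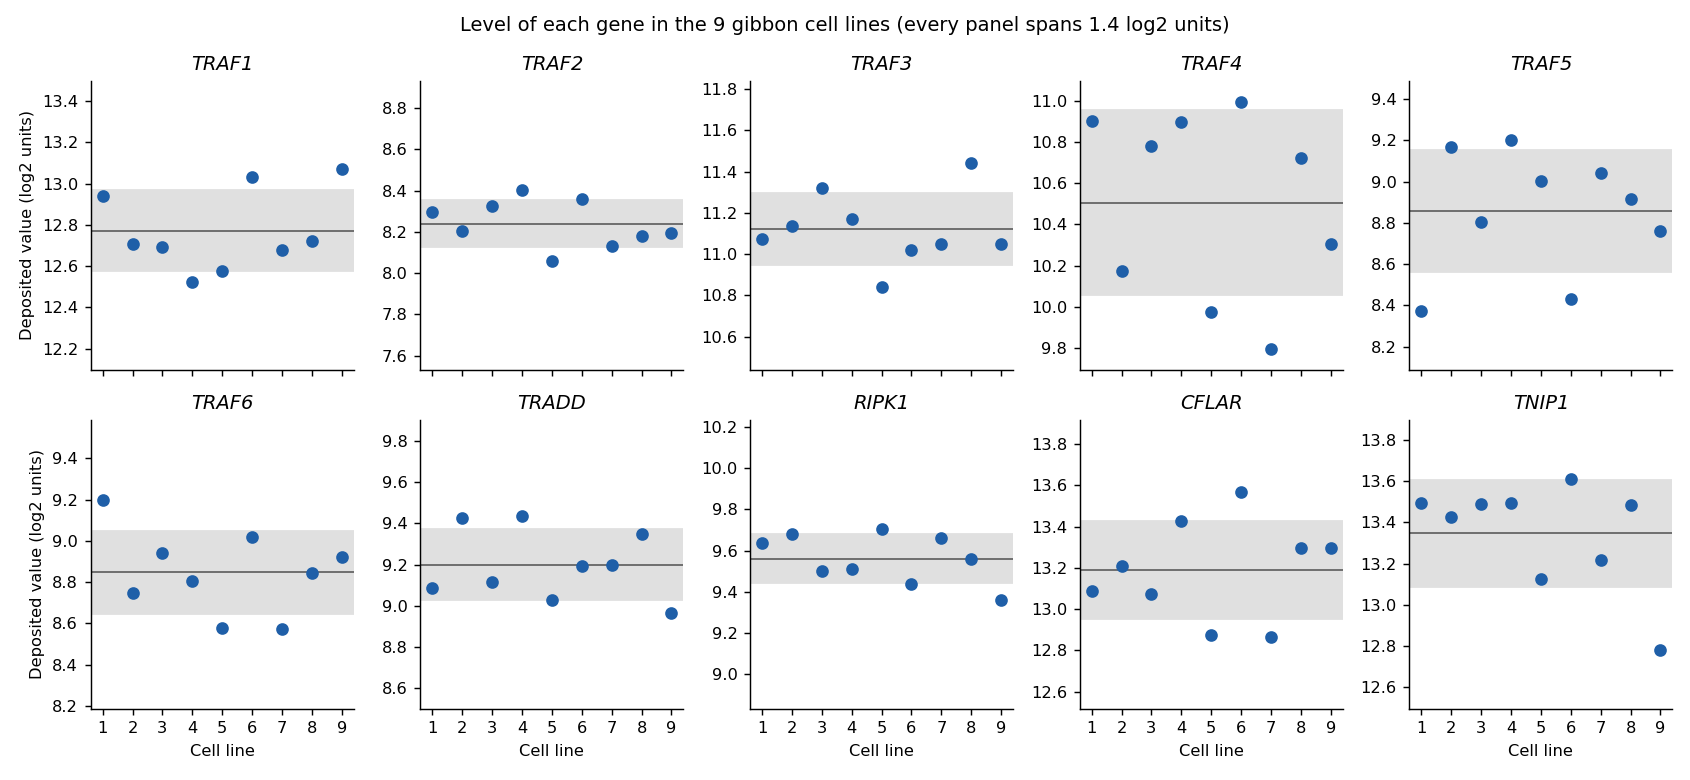
Deposited level (log2 units, vertical axis) of each gene in each of the 9 lines (horizontal axis, 1 point per line), with the mean as a line and 1 SD to each side as a grey band. Every panel spans the same number of log2 units. TRAF4 fills most of its panel, with a range of 1.20, and TRAF2 and RIPK1 fill the least, with ranges of 0.34 and 0.35.

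Of the adaptors that LMP1 binds in human cells, TRAF1 had 3 lines above the rest. TRAF1 (ENSG00000056558) has no RING domain, the part that makes other TRAFs ubiquitin ligases, and joins TRAF2 in mixed trimers. Its level ran from 12.53 log2 units in line 4 through a median of 12.71 to 13.07 in line 9, with a mean of 12.77 ± 0.20 (SD, n = 9) and a 1.46-fold range. Line 1 at 12.94, line 6 at 13.03 and line 9 lay above a gap of 0.22 log2 units, and the other 6 lines lay at or below 12.72.

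TRAF2 (ENSG00000127191), the adaptor that brings the ubiquitin ligases cIAP1 and cIAP2 to the receptor, was the steadiest of the 10 genes. It ran from 8.06 log2 units in line 5 through a median of 8.20 to 8.40 in line 4, a 1.27-fold range, with a mean of 8.24 ± 0.11 (SD, n = 9). Of all kept genes, 9.43% had a lower SD. No gap between neighbouring lines exceeded 0.097 log2 units.

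TRAF3 (ENSG00000131323) restrains the alternative NF-kB pathway by holding the kinase NIK for degradation. It ran from 10.84 log2 units in line 5 through a median of 11.08 to 11.44 in line 8, a 1.52-fold range, with a mean of 11.12 ± 0.18 (SD, n = 9). Line 3 came next to the top, at 11.32, and line 6 next to the bottom, at 11.02. Without line 5 the range was 0.42 log2 units.

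TRAF5 (ENSG00000082512), which resembles TRAF2 and TRAF3 in its receptor binding and is known in mice as a restraint on some B cell signals, was low in 2 lines. It stood at 8.37 log2 units in line 1 and 8.43 in line 6, and the other 7 lines began 0.33 log2 units higher, at 8.76 in line 9. The median was 8.92 and the highest level 9.20, in line 4. The mean was 8.86 ± 0.30 (SD, n = 9) and the range 1.78-fold. Lines 1 and 6 were thus the lowest in TRAF5 and among the 3 highest in TRAF1.

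TRAF6 (ENSG00000175104) serves Toll-like and interleukin-1 receptors as well as CD40, and builds ubiquitin chains that activate the kinase TAK1. Line 1 was highest, at 9.20 log2 units, and line 6 followed at 9.02. Lines 7 and 5 were lowest, at 8.57 and 8.58. The median was 8.84, the mean 8.85 ± 0.20 (SD, n = 9) and the range 1.55-fold. Line 1 accounted for part of this range, which was 1.36-fold without it.

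TRAF4 (ENSG00000076604) is the member least tied to TNF receptors and is known for roles in cell junctions and development. It differed most between the lines. The lowest levels were 9.80 log2 units in line 7 and 9.97 in line 5, and line 2 at 10.17 and line 9 at 10.31 followed. A gap of 0.42 log2 units separated these 4 lines from the other 5, which ran from 10.72 in line 8, the median, through 10.90 in line 1 to 10.99 in line 6. The mean was 10.51 ± 0.45 (SD, n = 9), with a 2.29-fold range, and 85.4% of all kept genes had a lower SD. Among the 2328 kept genes with a mean of at least 100 ppm, TRAF4's own class of level, the share was 92.4%. TRAF4 lay close to that limit, with a mean of 108.5 ppm and with lines 2, 5, 7 and 9 below 100 ppm. The range stayed above 1 log2 unit whichever line was left out, with 1.02 without line 7 as the lowest value.

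Both death-domain genes had a smaller spread than most kept genes, RIPK1 more clearly than TRADD. TRADD (ENSG00000102871) is the adaptor that couples the TNF receptor TNFR1, and LMP1, to TRAF2 and RIPK1. Its lowest level was 8.97 log2 units in line 9, its median 9.19 and its highest 9.44 in line 4, closely followed by 9.43 in line 2. The mean was 9.20 ± 0.17 (SD, n = 9) and the range 1.39-fold, and 31.4% of all kept genes had a lower SD. RIPK1 (ENSG00000137275) is the kinase that can serve either NF-kB activation or cell death. It ran from 9.36 log2 units in line 9 through a median of 9.56 to 9.71 in line 5, a 1.27-fold range, with a mean of 9.56 ± 0.12 (SD, n = 9). Of all kept genes, 11.2% had a lower SD than RIPK1. Line 9 was the lowest line in both genes.

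CFLAR (ENSG00000003402) encodes c-FLIP, the caspase-8 relative that blocks death signalling at the receptor. Its lowest levels were 12.86 log2 units in line 7 and 12.88 in line 5. The median was 13.21, and lines 4 and 6 were highest, at 13.43 and 13.57. The mean was 13.19 ± 0.24 (SD, n = 9) and the range 1.63-fold. Human annotation has an antisense gene over CFLAR. Strandedness is not given in the sources used here, so reads of the 2 strands could not be told apart.

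TNIP1 (ENSG00000145901) encodes ABIN1, which binds ubiquitin chains and the deubiquitinase A20 and dampens NF-kB. It was nearly level in lines 1, 2, 3, 4 and 8, lower in lines 5 and 7, and lowest in line 9. Line 9 stood at 12.78 log2 units, below line 5 at 13.13 and line 7 at 13.22. The median was 13.48 and the highest level 13.61, in line 6. The mean was 13.35 ± 0.26 (SD, n = 9) and the range 1.78-fold. Line 9 set much of that range, which was 0.48 log2 units without it, although the gap below line 5 (0.35 log2 units) did not reach Dixon's criterion.

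**Figure D2:**
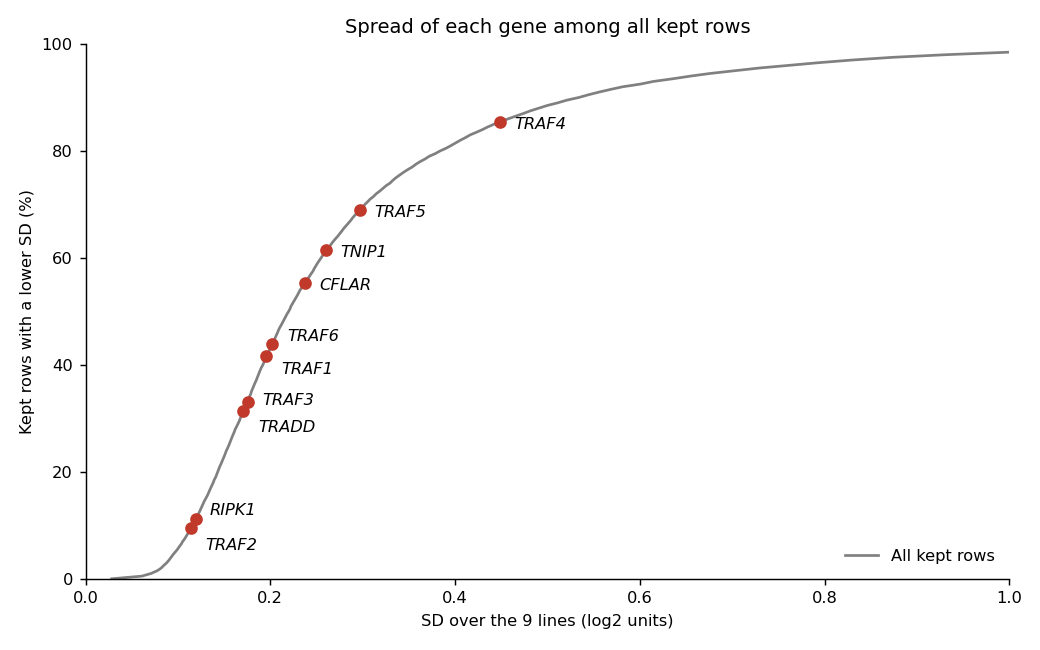
SD over the 9 lines (log2 units, horizontal axis) against the percentage of the 12590 kept genes with a lower SD (vertical axis). The grey curve is all kept genes and the red points are the 10 genes. They run from TRAF2, at 9.43%, to TRAF4, at 85.4%, and 4 of the 10 lie above the middle of the curve.

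Seen by animal, lines 5, 7 and 9 lay below the median of the lines in most of these genes, and lines 1, 4 and 6 above it. Line 5 lay below the median of the lines in 8 of the 10 genes, by a median of 0.20 log2 units (deviation -0.20), with TRAF4 farthest down at -0.75. Its 2 genes above the median were TRAF5 and RIPK1, the latter by 0.15. Line 7 lay below in 7 genes, with a median deviation of -0.05, TRAF4 at -0.92 and CFLAR at -0.34. Lines 5 and 7 were the lowest 2 lines in TRAF2, TRAF4, TRAF6 and CFLAR.

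Line 4 lay above the median in 7 genes, with a median deviation of 0.13 log2 units, and was the highest line in TRAF2, TRAF5 and TRADD. Line 6 lay above in 6 genes and below in 3, with a median deviation of 0.14. It was the highest line in TRAF4, CFLAR and TNIP1 and the second lowest in TRAF5, at -0.49. The median deviation over all kept genes was 0.02 in line 1 and 0.00 in the other lines.

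Line 9 lay below in 7 genes and above in 3, with a median deviation of -0.09. It was the highest line in TRAF1, by 0.36 log2 units above the median, and the lowest in TNIP1 at -0.70, RIPK1 at -0.20 and TRADD at -0.23. Line 8 was the most central, with 5 of the 10 genes exactly at their median and a single wide departure, 0.37 above in TRAF3. Over all kept genes line 1 had the largest SD of its deviations, 0.53 log2 units, beside 0.22 to 0.42 elsewhere, while line 9 had the largest median absolute deviation, 0.21. The median absolute deviation of line 1 was 0.11 log2 units over the 10 genes, beside 0.20 over all kept genes, and that of line 9 over the 10 genes was 0.18. Line 1 lay above the median in 6 of the 10 genes and below in 3, with a median deviation of 0.05.

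**Figure D3:**
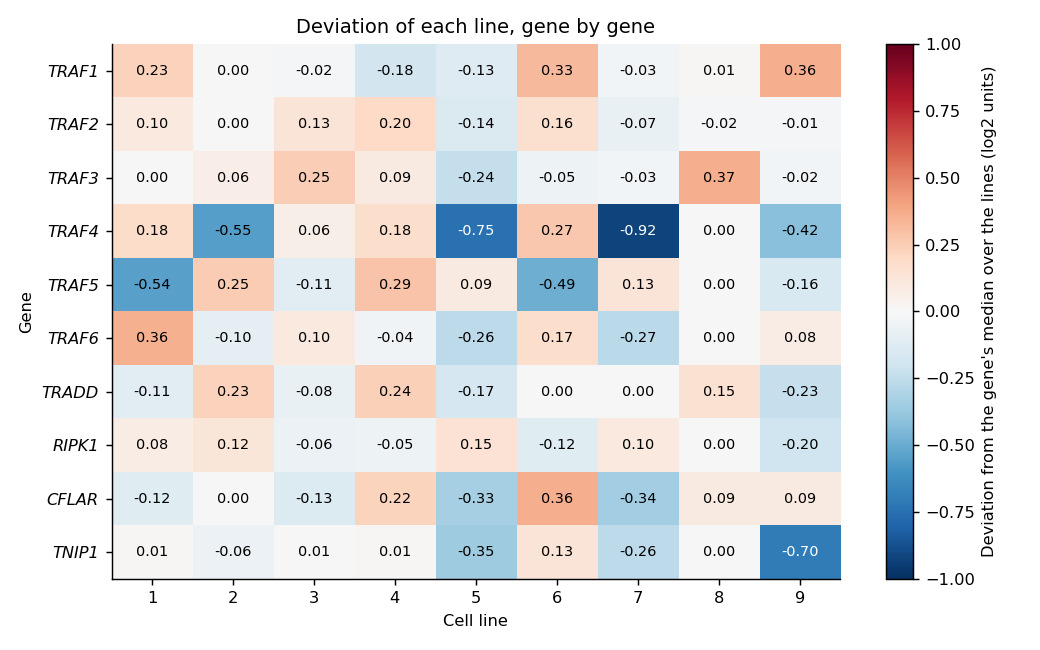
Deviation of each line (columns) from the gene's median over the 9 lines (rows, log2 units), with blue below and red above. The deepest cells are TRAF4 in lines 7 (-0.92) and 5 (-0.75) and TNIP1 in line 9 (-0.70). TRAF5 is low in lines 1 and 6, where TRAF1 and TRAF6 are high.

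Differences between a pair of these genes within a line show how their balance shifted. The size of such a difference depends on gene length, but its change from line to line does not. TRAF5 minus TRAF2 was 0.075 log2 units in line 1 and 0.070 in line 6, and between 0.48 (line 3) and 0.97 (line 2) in the others, a 1.86-fold shift. Its SD of 0.35 exceeded that of TRAF5 alone (0.30) and of TRAF2 alone (0.11), and the correlation of the 2 genes was -0.32 (exact permutation p = 0.395, n = 9). CFLAR minus RIPK1, an inhibitor of receptor-driven death set against a kinase of the same complexes, shifted 1.95-fold. Lines 5 and 7 had the smallest differences, 3.17 and 3.20 log2 units, and line 6 the largest, 4.13.

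The other balances moved less. TRAF1 minus TRAF2 ran from 4.12 log2 units in line 4 to 4.88 in line 9, a 1.69-fold shift. TRAF3 minus TRAF2 ran from 2.66 in line 6 to 3.26 in line 8, and TRADD minus RIPK1 from -0.68 in line 5 to -0.08 in line 4, each a 1.51-fold to 1.52-fold shift. TRAF6 minus TRAF2 shifted least, by 1.41-fold, with line 1 highest at 0.90. TRAF6 and TRAF2 thus kept their balance more closely than the other pairs set side by side here.

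Whether the genes varied together over the lines was asked in 2 ways. Pearson and Spearman correlations over the 9 lines were computed for all 45 pairs, with two-sided exact permutation p-values. In addition, every kept gene was fitted on the level of each of the 10 genes with limma, and p-values were adjusted by Benjamini-Hochberg over the 12589 other genes. A pair was called where both of its fits passed an adjusted p of 0.05. By limma 0 of 45 pairs were called, and the smallest adjusted p of the 90 fits between the 10 genes was 0.092. At an unadjusted p under 0.05, 17 of these fits (18.9%) passed, beside 13.2% of all fits. Each pair was fitted in both directions, so these fits are not independent, and 7 pairs passed in both. A p that misses the threshold at 9 lines does not show that a pair varied independently, and the pairs with the highest and lowest r are given as values. Their exact permutation p-values are for single pairs. They are not adjusted for the 45 pairs or for the choice by r. Of the 45 pairs, 9 had an exact permutation p of r under 0.05, and 6 had one of rho under 0.05.

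TRAF2 and TRAF4 had the highest Pearson correlation. Their r was 0.87 (exact permutation p = 0.0043, n = 9) and their rho 0.83 (exact permutation p = 0.0083). Lines 5 and 7 were lowest and lines 4, 6, 1 and 3 highest in both. Lines 4 and 6 lay farthest from the TRAF2 median, and r was 0.82 without them, and leaving out any 1 line gave 0.83 to 0.93. The slope of TRAF4 was 3.41 ± 0.69 log2 units (SE) per log2 unit of TRAF2, with a limma adjusted p of 0.204.

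TRAF4 and TRAF6 had an r of 0.81 (exact permutation p = 0.0069, n = 9) and a rho of 0.87 (exact permutation p = 0.0045). The low end was lines 5 and 7, and without those lines r was 0.54. The limma adjusted p was 0.092 for TRAF4 fitted on TRAF6 and 0.159 the other way. Without line 9, the fit of TRAF4 on TRAF6 passed the threshold while the reverse fit did not. TRAF4 and CFLAR had an r of 0.70 (exact permutation p = 0.040, n = 9) and a rho of 0.68 (exact permutation p = 0.050). Without lines 5 and 7, the lines farthest from the TRAF4 median, r was 0.27, over a narrower range of TRAF4. The exact permutation p was above 0.05 without line 4, 5, 6, 7 or 8 alone (n = 8). TRAF4 has a gap between 4 and 5 lines, and neither side holds the 6 lines needed to compute r within it.

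TRAF5 ran opposite to TRAF6 and TRAF1. For TRAF5 and TRAF6, r was -0.82 (exact permutation p = 0.0074, n = 9) and rho -0.83 (exact permutation p = 0.0083). Without lines 1 and 6, the 2 low lines of TRAF5, r was -0.54, and without line 1 alone it was -0.70 (exact permutation p = 0.051, n = 8). For TRAF1 and TRAF5, r was -0.80 (exact permutation p = 0.012, n = 9) and rho -0.78 (exact permutation p = 0.017). Lines 6 and 9 lay farthest from the TRAF1 median. Here r was -0.86 without them, and between -0.90 and -0.73 with any 1 line left out. The limma adjusted p of TRAF6 fitted on TRAF5 was 0.155, and that of TRAF1 fitted on TRAF5 was 0.170.

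RIPK1 and CFLAR also ran in opposite directions, with an r of -0.70 (exact permutation p = 0.040, n = 9) and a rho of -0.60 (exact permutation p = 0.097). Lines 5 and 7 combined high RIPK1 with the lowest CFLAR, and line 6 had the highest CFLAR beside the second lowest RIPK1. Lines 5 and 9 lay farthest from the RIPK1 median, and r was -0.70 without both. It was -0.61 without line 5 alone (exact permutation p = 0.108, n = 8) and -0.77 without line 9 alone. The exact permutation p was also above 0.05 without line 1, 4, 6, 7 or 8 alone (n = 8). The limma adjusted p of CFLAR fitted on RIPK1 was 0.956. Over all pairs, 29 correlations were positive and 16 negative, and TRAF1 and TRAF2, which form mixed trimers, had an r of 0.17 (exact permutation p = 0.649, n = 9).

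**Figure D4:**
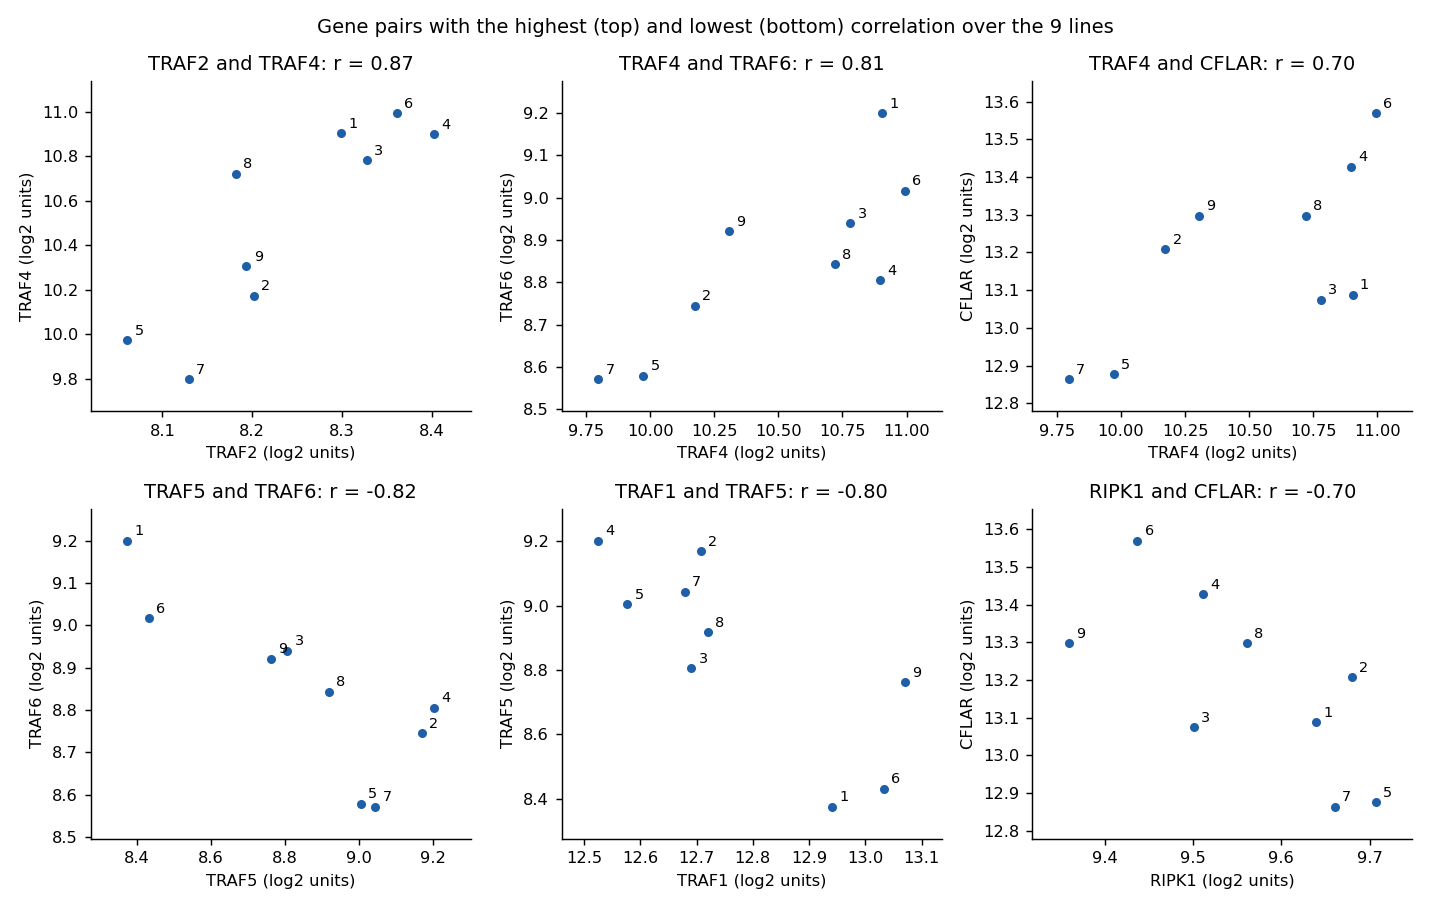
Levels (log2 units on both axes) of the 3 gene pairs with the highest and the 3 with the lowest Pearson correlation, with 1 numbered point per line. Lines 5 and 7 hold the low corner of the upper panels, and lines 1 and 6 hold the low TRAF5 end of the first 2 lower panels.

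With all 9 lines fitted, TNIP1 and TRAF5 had the most associated genes at an adjusted p under 0.05, although at an unadjusted p under 0.05 TRAF6 (2524) and TRAF4 (2273) had more than TRAF5 (1934). On TNIP1, limma called 1119 of 12589 genes (8.89%) at an adjusted p under 0.05, of which 462 ran with it and 657 against it. None of the other 9 genes described here was among them. The count rested on line 9, the lowest line of TNIP1: without line 9 it was 18. It was also lower without line 2 (625), line 5 (438), line 6 (697) and line 8 (645). The drop was smaller without line 3 (980), line 4 (808) or line 7 (747), and without line 1 the count rose to 1342. Line 9 also had the largest median absolute deviation over all kept genes, 0.21 log2 units. Its linear total was the lowest, 13728358, beside 13892265 to 14059842 in the other lines. The part of that library in the result was not tested. Without line 9, left out here after the values were seen, the r of TNIP1 (n = 8) was 0.90 with TRAF4, 0.86 with TRAF2, 0.84 with CFLAR and 0.81 with TRAF6. Over all 9 lines these values were 0.65 (exact permutation p = 0.041), 0.62, 0.34 and 0.35. By rank, TNIP1 already ran with 2 of these genes over all 9 lines. Its rho was 0.87 with TRAF4 (exact permutation p = 0.0045) and 0.83 with TRAF2 (exact permutation p = 0.0083). It was 0.57 with CFLAR and 0.57 with TRAF6 (exact permutation p = 0.121 each). With TRAF1 r went from -0.20 to 0.57 and with RIPK1 from 0.17 to -0.79. The remaining genes had an r without line 9 of 0.54 (TRAF3), 0.36 (TRADD) and -0.48 (TRAF5), beside 0.43, 0.60 and -0.18 over all lines.

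On TRAF5, limma called 130 genes (1.03%), 50 with it and 80 against it, and again none of the other 9. The count was 2 without line 1 and 2 without line 4, 9 without line 5, 9 without line 7, 19 without line 2 and 70 without line 8. It was 174 without line 3, 210 without line 9 and 285 without line 6. Line 1, the lowest in TRAF5, also had the largest SD of deviations over all genes, and its part in the result was not tested.

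The remaining 8 genes were followed by almost no others at this threshold. On TRAF6 limma called 1 gene (0.00794%), running against it, and on TRADD 1 gene (0.00794%), running with it. Leaving out line 9 raised the TRAF6 count to 491, leaving out line 4 gave 3, and leaving out line 1, 2, 3, 5 or 7 gave 0. For TRADD the count was 1 without line 6 and 0 without any other single line. On TRAF1, TRAF2, TRAF3, TRAF4, RIPK1 and CFLAR limma called 0 genes (0.0% each). At an unadjusted p under 0.05 it listed 1143 genes (9.08%) for TRAF1, 1902 for TRAF2, 436 for TRAF3, 2273 for TRAF4, 632 for RIPK1 and 790 (6.28%) for CFLAR. TRAF4 had 12 genes without line 9, TRAF2 had 6 without line 4, TRAF1 had 3 without line 9 and 1 without line 3, and CFLAR had 1 without line 1.

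At the unadjusted threshold, the fit on TRAF4 passed for 4 of the other 9 genes, TRAF2, TRAF6, CFLAR and TNIP1, beside 18.1% of all genes. The fit on TRAF2 passed for 3 of them, beside 15.1%, and the fit on TRAF6 for 3, beside 20.0%. The fit on TRAF1 passed for 2, TRAF5 and TRAF6, beside 9.08%, and that on TRAF5 for 2, TRAF1 and TRAF6, beside 15.4%. A total of 1 gene each passed in the fits on RIPK1 (beside 5.02%), CFLAR (6.28%) and TNIP1 (26.0%), and 0 passed in those on TRAF3 (3.46%) and TRADD (13.9%). These shares of 9 genes rest on at most 4 genes each. TRAF3, RIPK1 and CFLAR had the fewest genes passing the unadjusted threshold, 3.46%, 5.02% and 6.28%. The threshold is 0.05, which is also the share of genes that would pass it with no association. The smallest limma adjusted p was 0.98 on TRAF3, 0.96 on RIPK1 and 0.24 on CFLAR. These shares therefore do not show that any gene ran with or against TRAF3, RIPK1 or CFLAR.

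For the 2 genes of widest spread, the genes of most similar and most opposite course are given by identifier, since their symbols are not paired with the table. The closest course to TRAF4 was that of ENSG00000112855, at r = 0.97, and the most opposite that of ENSG00000130749, at r = -0.97. For TRAF5 they were ENSG00000067606, at r = 0.97, and ENSG00000198780, at r = -0.98. Each was the extreme of 12589 values over 9 lines.

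**Figure D5:**
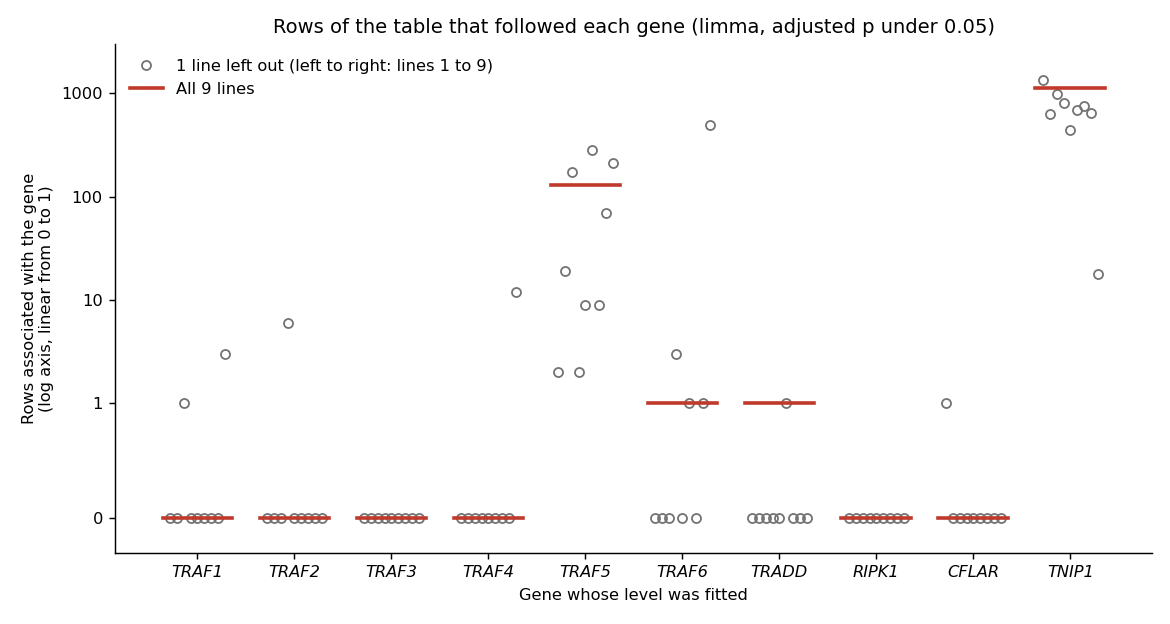
Number of genes of the table associated with each of the 10 genes (limma, adjusted p under 0.05; log axis that is linear from 0 to 1). Red bars show all 9 lines, and open circles the fits with 1 line left out, line 1 to line 9 from left to right. TNIP1 drops from 1119 to 18 without line 9, TRAF6 goes from 1 to 491 without the same line, and TRAF5 drops from 130 to 2 without line 1 or line 4.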

How the data were processed

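The authors deposited 1 table for the series, with values on a log scale that were taken as log2 expression. The log base, how the values were normalized, the genome build and the annotation were not given in the sources used here. Per the submitters' processing notes, Trimmomatic, STAR, edgeR and DESeq2 were used, with no version or role. The last 2 column names lacked a tab between them and were matched to lines by name; 0 per-sample columns were left unused. The 10 identifiers were paired with symbols when the genes were chosen. The RefSeq table for Asia_NLE_v1 holds all 10 symbols but 0 of the table's identifiers, so this pairing was not checked. For the same reason the planned pathway and cell type marker lists were not used, the cell type label was not checked against markers, and levels per length were not computed. The genes and lists were chosen with earlier results of these data known.

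Values were raised to base 2 for linear totals, the ppm filter, the ppm class of level and the pseudocount setting; all tests used log2 values. Associations were fitted with limma 3.58.1 in R 4.3.3 with a robust prior following the mean level, on all kept genes at once. In data simulated for TRAF4 with 12589 genes, the fit recovered 12% of 200 genes made with r = 0.9, 48.5% at 0.95 and 78.5% at 0.99. For TRAF1 it recovered 2.5%, 51.5% and 72.5%, so most genes made with r = 0.9 were missed for TRAF4 and TRAF1. The share missed in the fits to the deposited values was not tested. Exact permutation used all 362880 orders of the lines. Genes named among pairs were the 3 highest and 3 lowest r, a rule set with the tests. The lines come from different animals and were the replicates.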

Additional observations from a re-analysis of the deposited data

How the results depend on the processing

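No filter, a filter of 5 ppm, median-centring, quantile normalization, a pseudocount of 1 ppm, a prior without trend (limma fits only) and leaving out each line were tried. The settings for ranges and correlations were added after the data were seen. TRAF4 was the 1 gene of at least 2-fold range, 0 genes had an outlying line and 0 pairs were called under every one of them. Median-centring and quantile normalization moved the median gene by at most 0.025 log2 units, and the pseudocount by at most 0.051. Genes associated with TNIP1 numbered 965 to 1235 under the other settings, and 18 (without line 9) to 1342 (without line 1) with a line left out. For TRAF5 the numbers were 129 to 173, and 2 to 285. The single gene of TRADD was lost (0) with no filter, quantile normalization, the pseudocount and the prior without trend, and with a line left out the number was 0 to 1. With a line left out, the numbers were 0 to 491 for TRAF6, 0 to 12 for TRAF4, 0 to 6 for TRAF2, 0 to 3 for TRAF1, 0 to 1 for CFLAR and 0 for TRAF3 and RIPK1. The correlation of TRAF4 and CFLAR was 0.62 under quantile normalization (exact permutation p = 0.076, n = 9) and 0.58 to 0.81 with a line left out, missing 0.05 without line 4, 5, 6, 7 or 8. That of RIPK1 and CFLAR was -0.77 to -0.61 with a line left out, and missed 0.05 without line 1, 4, 5, 6, 7 or 8. The causes were not tested. No paired analysis was possible because all 9 lines belong to 1 group. Counting error could not be separated from differences between lines, since the depths are unknown.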
